A study of Mus musculus with 6 samples.

Results

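Very wide accessible intervals are stretches of open chromatin that extend over at least 2000 bp without a break in the peak set. They were chosen by their width alone from a consensus set of ATAC-seq peaks, on chromosomes 1 to 19, and 1686 of the 314915 intervals on these chromosomes qualified (0.535%), out of 323483 intervals in all. ATAC-seq marks open DNA by the insertions of a transposase. The cells were mouse embryonic fibroblasts heterozygous for an M2-rtTA and a TetO-Myf6 allele, in which doxycycline switches on Myf6, a myogenic transcription factor. Both alleles were present in every group, and every culture spent 24 h in iMPC medium, which holds 10 ng/mL bFGF. The medium group had no addition, the Myf6 group had doxycycline (2 µg/mL), and the Myf6 with F/R/C group had the same doxycycline together with forskolin at 5 µM (an activator of adenylate cyclase), RepSox at 5 µM (which blocks the TGF-beta receptor kinase) and CHIR99021 at 3 µM (which blocks glycogen synthase kinase 3). Each group had 2 libraries, and the labels do not say whether these came from separate cultures.

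The peak set holds positions only, as a single consensus of the experiment, so no value below belongs to a group, none has a replicate error, and read depth is unknown. The sources used here do not say how peaks of the libraries were combined, so whether a wide interval was a single peak in each library cannot be told. Width chose the members and is given as a description. The other shares carry 95% Wilson intervals, which treat intervals or starts as independent and cover counting error only.

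As background, a gene is transcribed from a start site that lies in a promoter, and an active promoter is kept free of nucleosomes over a short stretch. In mammals many promoters lie in CpG islands, which are rich in the dinucleotide CG and tend to be open in most cell types, while genes of a single tissue often have promoters poor in CG. Open stretches much longer than a single nucleosome-free region are known from CpG islands, from paired promoters of neighbouring genes and from clusters of enhancers.

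The bases next to 4 start sites under very wide intervals show how different such promoters can be in sequence. The 4 are the widest members with a single listed start of a protein-coding gene and no annotated gene over the bases shown. Each line gives the 200 bases just before the start (RefSeq, GRCm38.p6), read 5′ to 3′ on the gene's strand, with each CG in capitals. The genes are Six5, a homeobox factor, Shb, an adaptor of receptor tyrosine kinases, Foxo1, a forkhead factor restrained by insulin signalling, and Gm2102, a predicted gene next to Pax3.
Six5, chr7:19094344-19094543, plus strand: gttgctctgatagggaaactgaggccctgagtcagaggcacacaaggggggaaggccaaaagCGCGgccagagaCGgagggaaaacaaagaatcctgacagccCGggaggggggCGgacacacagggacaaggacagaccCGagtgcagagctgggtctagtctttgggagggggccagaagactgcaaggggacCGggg
Shb, chr4:45530829-45531028, minus strand: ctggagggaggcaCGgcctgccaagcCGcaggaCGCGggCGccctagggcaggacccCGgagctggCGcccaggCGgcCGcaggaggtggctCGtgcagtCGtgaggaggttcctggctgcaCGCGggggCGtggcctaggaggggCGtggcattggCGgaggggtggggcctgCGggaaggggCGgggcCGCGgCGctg
Foxo1, chr3:52268137-52268336, plus strand: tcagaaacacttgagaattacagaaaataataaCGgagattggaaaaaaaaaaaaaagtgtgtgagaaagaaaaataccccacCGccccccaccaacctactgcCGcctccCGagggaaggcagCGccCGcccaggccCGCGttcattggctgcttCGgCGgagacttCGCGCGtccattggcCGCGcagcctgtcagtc
Gm2102, chr1:78218271-78218470, minus strand: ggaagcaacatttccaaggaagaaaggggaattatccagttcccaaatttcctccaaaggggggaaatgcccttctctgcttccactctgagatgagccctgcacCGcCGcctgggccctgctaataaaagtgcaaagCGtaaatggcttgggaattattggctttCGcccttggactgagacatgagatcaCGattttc
The Shb and Foxo1 stretches hold 21 and 15 CG dinucleotides, the Six5 stretch 7 and the Gm2102 stretch 5. For contrast, 3 muscle genes were chosen after their values were seen. Myog encodes myogenin, Ckm the muscle creatine kinase and Myh4 a myosin heavy chain of fast fibres.
Myog, chr1:134289804-134290003, plus strand: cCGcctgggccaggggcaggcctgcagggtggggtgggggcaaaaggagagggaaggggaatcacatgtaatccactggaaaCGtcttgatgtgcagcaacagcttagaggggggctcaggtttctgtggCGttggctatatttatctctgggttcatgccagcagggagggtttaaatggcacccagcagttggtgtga
Ckm, chr7:19410894-19411093, plus strand: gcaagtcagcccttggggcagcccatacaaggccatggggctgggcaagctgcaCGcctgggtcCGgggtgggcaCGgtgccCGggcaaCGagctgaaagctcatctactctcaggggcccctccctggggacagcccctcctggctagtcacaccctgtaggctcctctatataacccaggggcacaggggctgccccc
Myh4, chr11:67237612-67237811, plus strand: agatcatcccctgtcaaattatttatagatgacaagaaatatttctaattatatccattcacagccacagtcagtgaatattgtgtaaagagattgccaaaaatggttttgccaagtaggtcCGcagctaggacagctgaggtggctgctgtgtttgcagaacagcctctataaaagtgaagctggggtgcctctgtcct
These hold 3, 5 and 1 CG dinucleotides. An interval of 583 bp lies over the Myog start, and none lies over the starts of Ckm and Myh4. The Six5 and Gm2102 stretches, which lie under intervals of 3733 and 3044 bp, were nearer to the muscle genes in CG count than to Shb.

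Most very wide intervals were close to the limit. Their median width was 2206 bp (quartiles 2088 and 2425 bp), against 337 bp over all intervals of chromosomes 1 to 19, and 80.8% were under 2500 bp. Only 324 reached 2500 bp, 52 reached 3000 bp, and the widest measured 4160 bp. The members made up 2.69% of all bases in intervals. Just above the limit lay intervals of 2000 bp at Erbin, at Babam2 (18483 bp from its nearest end) and at the paired genes Cul4a and Pcid2, and of 2001 bp at Lrrc10b and at 225593 bp from Csl. Just below it, 5 intervals of 1999 bp lay nearest to Tmem263, Dhx40, Cdc14b, Gm31665 and Ism1. Widths ran on without a gap across the limit.

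The widest interval, 4160 bp on chromosome 9 (121757510 to 121761669), covered the start of Zfp651, which encodes a zinc finger protein, and also touched the lncRNA gene E530011L22Rik. The next, 3733 bp on chromosome 7 (19092595 to 19096327), joined a pair of genes with links to muscle disease. It covered the last 1227 bp of Dmpk, the myotonic dystrophy protein kinase gene, the 722 bp between the genes, and the first 1784 bp of Six5, which is transcribed in the same direction. An interval of 3711 bp lay over Spns2, a transporter of sphingosine-1-phosphate, just beyond the end of Mybbp1a. Next came 3699 bp inside Hivep2, a zinc finger gene, over a listed internal start, 3628 bp over the lncRNA Gm32700 near Tex44, and 3620 bp at the start of Shb. Cdk6, the kinase that drives cells through G1 with D-type cyclins, had 3586 bp over a listed start and another interval of 2064 bp further inside the gene. The interval beside Igfbp5, which encodes an IGF-binding protein, measured 3475 bp and lay 162 bp beyond the 3′ end of the gene.

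The other members of the widest 20 ranged from 3276 to 3448 bp. That of 3446 bp joined the starts of Ddit3, the stress factor CHOP, and Mbd6, which run in opposite directions. Those at Foxo1 (3340 bp), Fzd8 (3309 bp), a Wnt receptor gene, Socs2 (3331 bp), an inhibitor of cytokine signalling, Gnb2 (3350 bp), a G protein subunit, Numbl (3289 bp), an adaptor linked to Notch signalling, and Sorcs2 (3276 bp), a sorting receptor, each covered an end of that gene. The interval at Tsen54 (3292 bp), a subunit gene of the tRNA splicing enzyme, did so too. Limd2 shared an interval of 3383 bp with the predicted gene Gm10840, the interval of 3448 bp lay at the predicted gene Gm20783, and an interval of 3291 bp reached the 3′ end of Ptbp1, a splicing repressor, from within the neighbouring gene Plppr3. In all, 17 of the 20 covered a gene end or a listed start, 11 had their midpoint within 1 kb of a gene end, 7 over a gene body and 2 outside genes.

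**Figure D1:**
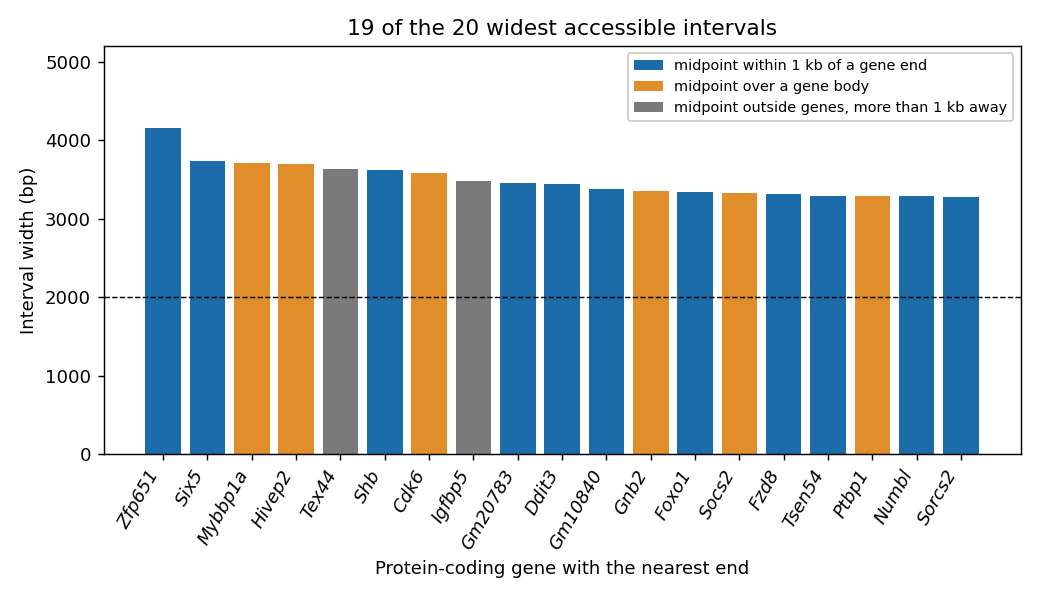
Width in bp (vertical axis) of 19 of the 20 widest intervals on chromosomes 1 to 19, each named by the protein-coding gene with the nearest end and coloured by the position of its midpoint; the dashed line marks 2000 bp. Widths run from 4160 bp at Zfp651 to 3276 bp at Sorcs2 with no large step after the first.

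Very wide intervals lay at gene ends far more often than narrower ones. Of the 1686, 1016 (60.3%, 57.9 to 62.6%) were centred at most 1 kb from an end of a protein-coding gene, and 35.9% were within 500 bp. Over all intervals of chromosomes 1 to 19 that share was 6.89%, and among the 25827 intervals of 1000 to 1999 bp it was 30.8% (30.2 to 31.3%). Another 468 members (27.8%, 25.7 to 29.9%) lay over a gene body, against 48.7% of all intervals. The midpoint was outside genes and more than 10 kb away for 120 members (7.12%, 5.99 to 8.44%), against 34.9% of all intervals and 23.6% of those of 1000 to 1999 bp. Only 25 members (1.48%) were beyond 100 kb, against 14.4% of all intervals. Counts of covered ends grow with the span of an interval, and the midpoint classes depend on the span too. The intervals at Gnb2 (3350 bp) and Socs2 (3331 bp), for example, covered an end of the gene but had their midpoint over the gene body. In all, 68 of the 468 body members covered an end of a protein-coding gene. That gene was not always the one under the midpoint, as with the interval at Ptbp1 centred in Plppr3.

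**Figure D2:**
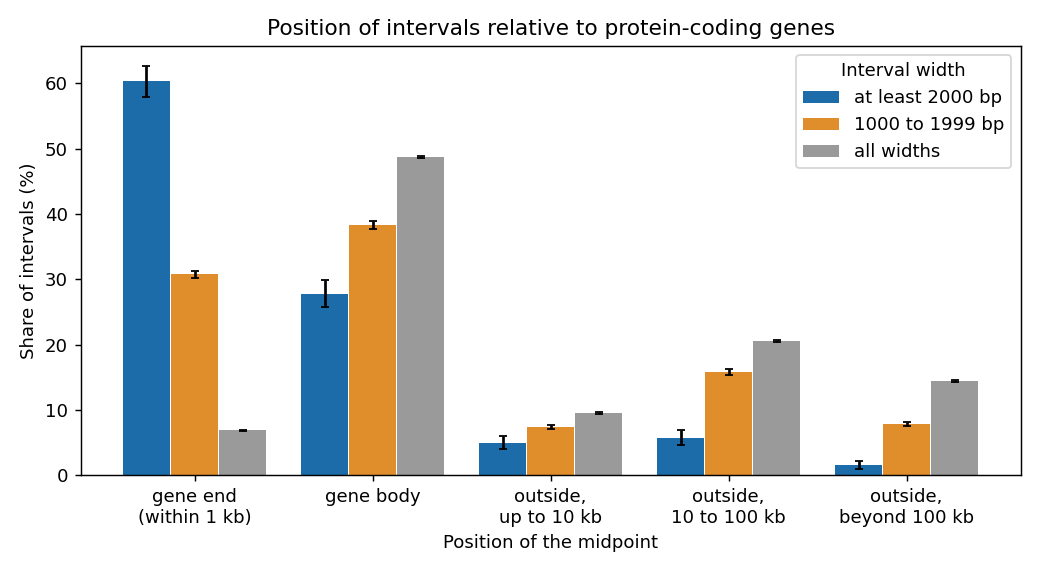
Share of intervals in % (vertical axis) by the position of the midpoint relative to protein-coding genes, for intervals of at least 2000 bp, of 1000 to 1999 bp and of all widths; error bars are 95% Wilson intervals. The gene-end share is 60.3%, 30.8% and 6.89% in these sets, and each class away from gene ends falls from all widths to the very wide intervals.

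The end in question was mostly the start of transcription. RefSeq promoters give strand and start for 16456 of the 20661 protein-coding genes on chromosomes 1 to 19, and for none on chromosome 18, which is left out here. Of the 1625 members elsewhere, 974 (59.9%, 57.5 to 62.3%) covered a listed start, against 3.6% of all intervals and 27.4% of those of 1000 to 1999 bp. The start of a single gene was covered by 873, of which 144 covered several listed starts of that gene. A 3′ end was covered by 50 members. Only 13 covered a 3′ end and no other annotated protein-coding end or listed start, among them those at Ptbp1, Fbxo41 (2901 bp), Homer3 (2607 bp), Dpf1 (2520 bp), Hnrnpa3 (2502 bp) and Tie1 (2241 bp). Seen from the genes, 1021 of the 16456 had a very wide interval at the start side (within 1 kb), 172 at the far side and 50 at both.

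Around a single start the intervals reached further into the gene than ahead of it. Over 729 members with 1 listed start of 1 gene, the median reach was 1391 bp downstream (quartiles 1057 and 1734 bp) and 858 bp upstream (576 and 1202 bp). The midpoint lay downstream of the start in 511 of them (70.1%, 66.7 to 73.3%), by a median of 264.5 bp over all 729. This lean was not particular to great width: of 5554 intervals of 1000 to 1999 bp with a single start, 72.9% (71.7 to 74.0%) had their midpoint downstream, with a median reach of 827 bp downstream and 523 bp upstream.

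**Figure D3:**
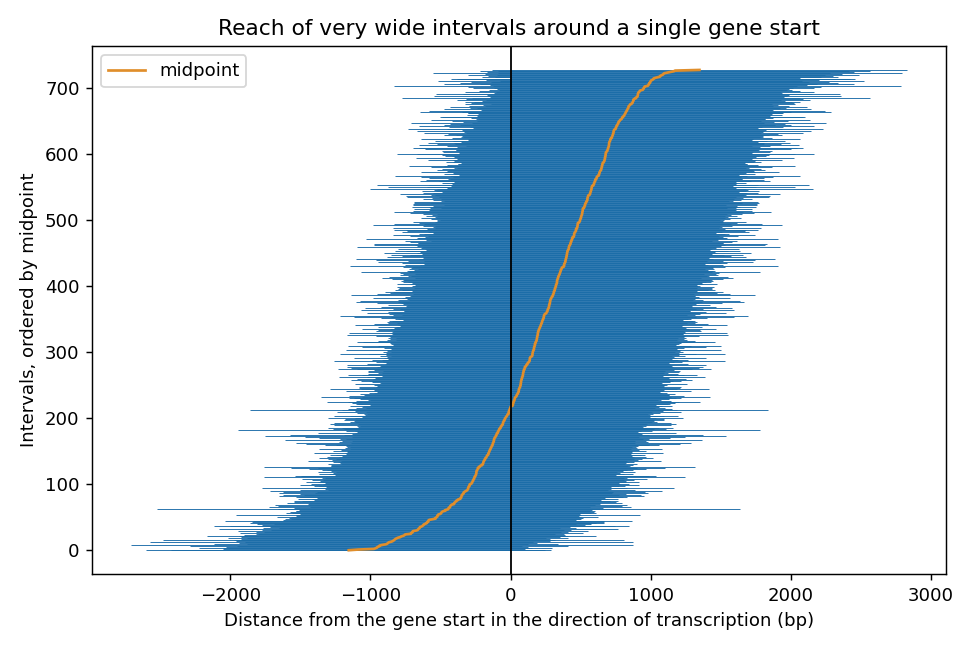
Reach of the 729 very wide intervals that cover a single listed start, each drawn as a horizontal line along the distance from the start in bp in the direction of transcription (horizontal axis) and ordered by midpoint (orange line). The midpoint lies to the right of the start in 511 of the 729 intervals.

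Some members joined the ends of neighbouring genes. Ends of 2 or more protein-coding genes fell in 168 members (9.96%, 8.62 to 11.5%), against 0.406% of all intervals and 3.72% of those of 1000 to 1999 bp. A wider interval covers more ends by its length alone. Starts of 2 genes were covered by 100 members and of 3 by 1, and in 90 members starts ran in opposite directions from each other. Besides Ddit3 with Mbd6, these included Nek8 with Tlcd1 (3249 bp), Mtx1 with Thbs3 (2848 bp), Cnppd1 with Retreg2 (2787 bp) and Eme2 with Nme3 (2725 bp), whose interval also covered the whole of Mrps34. The median width was 2206 bp for members with such paired starts, 2207 bp with the start of a single gene and 2202 bp with none. Width chose the members and most lie close to the limit. These medians therefore cannot show whether paired starts go with wider intervals. The interval that covered 3 genes' starts, 2078 bp on chromosome 8, lay at Psme3ip1, Rspry1 and the predicted LOC115486880. Other members with ends of 3 genes lay at Naa38 with Cyb5d1 and Tmem88 (2207 bp), at Senp3 with Tnfsf13 (2132 bp), at Ampd2 with Gnat2 (2032 bp) and at Chtf8 with Utp4 (2017 bp). In all, 13 protein-coding genes lay whole inside a member, the longest being Tnfrsf12a (2005 bp), the receptor of the cytokine TWEAK. The histone genes H4c1 and H3c1 shared a member of 2072 bp.

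A few genes had a separate very wide interval at each end. There were 11, while no gene had 3 or more over it. Dtx3 had 2537 and 2105 bp, Azin1, the antizyme inhibitor, 2392 and 2017 bp, and Loxl3, a lysyl oxidase, 2188 and 2431 bp. The 2431 bp counted for Loxl3 lay beyond the gene and covered ends of Htra2 and Aup1. The 2188 bp also covered an end of Dok1, and the 2537 bp at Dtx3 an end of Arhgef25. Tspan11 had 2211 bp at its start and 2061 bp at its 3′ end. Sik1, a salt-inducible kinase whose transcription is a known target of cAMP signalling, had 2740 and 2326 bp. The 2740 bp lay beside the gene and did not cover its end. In several genes the far interval lay beyond the 3′ end. Bzw1 had 2146 bp at its start and 2950 bp lying 762 bp beyond its 3′ end, Ncl (nucleolin) 2043 bp and 2134 bp with a gap of 422 bp, and Anp32b 2354 bp and 2113 bp with a gap of 493 bp. Ptbp1 had 2263 bp at its start and the 3291 bp named above at its 3′ end. In Prrc2b the far interval covered the start of Pomt1.

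The 300 bases around the starts (250 before, 50 after) were richer in CG under wider intervals. Starts of protein-coding genes under a very wide interval (1294 starts of 1072 genes) had a median of 27 CG dinucleotides (quartiles 18 and 36) and 67.0% G and C. Under intervals of 1000 to 1999 bp the medians were 23 and 62.7%, under intervals of less than 1000 bp 13 and 56.7%, and at starts without an interval 3 and 47.0%. None of the 1294 starts was without a CG, as were 841 of the 6957 starts without an interval. Read the other way, 0.452% (0.307 to 0.667%) of starts with 0 to 4 CG lay under a very wide interval, 6.74% (5.71 to 7.93%) of those with 10 to 14, and 17.0% (15.7 to 18.3%) of the 3234 with 30 or more. Among starts under any interval, the very wide share rose from 2.90% to 17.6% between the same outer classes. Alternative starts of a gene can share an interval, so starts are not independent of each other.

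**Figure D4:**
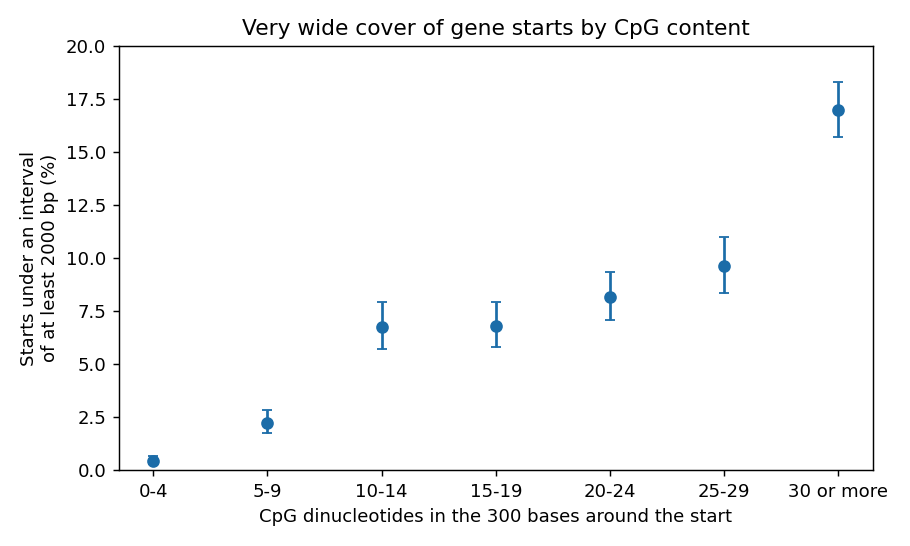
Share in % of listed protein-coding starts on chromosomes 1 to 19 that lie under an interval of at least 2000 bp (vertical axis), by the number of CpG dinucleotides in the 300 bases around the start (horizontal axis); error bars are 95% Wilson intervals. The share is 0.452% in the lowest class and 17.0% in the highest, with little difference between 10 to 14 and 15 to 19.

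Short motifs were searched on both strands in the same 300 bases, as letters only. The GC box GGGCGG, the motif of Sp factors, occurred at 75.2% of starts under very wide intervals (72.8 to 77.5%), 69.5% under intervals of 1000 to 1999 bp and 47.0% of all starts. The TATA box TATAAA occurred at 4.79%, 5.63% and 12.7%. The CCAAT box CCAAT was found at 30.6% (28.2 to 33.2%) of starts under very wide intervals, below the 37.5% (36.5 to 38.6%) under intervals of 1000 to 1999 bp and the 38.1% of all starts. The ETS motif CCGGAAG, also at 11.9% of all starts, was at 11.7% (10.1 to 13.6%) against 18.9% (18.1 to 19.8%). The motif of NRF1 was at 8.73% against 11.0%, with 6.55% over all starts. The AP-1 motif TGANTCA was at 3.32% against 4.59%, with 7.06% over all starts. The CRE motif TGACGTCA, which cAMP-regulated factors bind, was at 2.16% against 3.47%, with 2.30% over all. The E-box CAGCTG, a form bound by myogenic factors, was at 15.3% (13.4 to 17.4%), 14.6% and 15.6%, and the TEAD motif GGAATG at 11.2%, 11.1% and 13.4%. Of these motifs the GC box, ETS, NRF1 and CRE letters contain CG.

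The genes near very wide intervals were next described by function. Of the 20661 protein-coding genes, 1463 (7.08%) had a very wide interval at an end, meaning within 1 kb of it, and so did 9.26% of the 15795 genes with any interval there. In 1328 of the 1463 genes the interval covered the end itself or a listed start. A further 102 genes had no very wide interval at an end but had one over a listed start, which brought the genes with either to 1565 (7.57%). Lists of 25 kinds were read against the 7.08%, and 15 of them lay above it. No list was tested. Genes with a very wide interval at an end had a median length of 26.2 kb, those with narrower intervals only 21.5 kb, and those with none 5.85 kb. Genes with at least 20 CG in a listed promoter had a very wide interval in 12.1% of 6623 cases and the others in 3.45% of 9833.

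Genes of the Wnt and beta-catenin pathway, the pathway that CHIR99021 switches on, had the highest share. A very wide interval lay at an end of 8 of 20 (40.0%, 21.9 to 61.3%), and the median of the widest end interval was 1945 bp, against 1047 bp over all genes. Among the receptors, Fzd2 had 2911 bp, Fzd1 2456 bp and Fzd7 2092 bp, and the coreceptor gene Lrp5 had 2027 bp. Of the nuclear factors, Tcf7l1 had 2690 bp at its start and Lef1 2008 bp, within 1 kb of its end but not over it. Znrf3, which removes Frizzled receptors, had 2282 bp, and Gsk3b, which encodes the target of CHIR99021, 2248 bp. The coreceptor gene Lrp6 (1997 bp) and Apc (1952 bp), a scaffold of beta-catenin degradation, fell just short, and Axin1 had no interval at an end. Axin2, a feedback inhibitor of the pathway, had none at an end either, but an interval of 2480 bp covered its listed start inside the gene, and with it 9 of the 20 genes had a very wide interval at an end or a start. The listed promoters of this group held a median of 27 CG, against 15 over all genes, and of its 11 genes with 20 or more, 4 had a very wide interval.

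Genes of chromatin regulators followed, with 12 of 34 (35.3%, 21.5 to 52.1%). These included histone methyltransferase genes, with Kmt2c (2955 bp), Nsd1 (2945 bp), Kmt2a (2429 bp), Kmt2b (2132 bp) and Kmt2e (2119 bp), and remodeller genes, with Chd4 (2728 bp), Chd7 (2519 bp) and Smarca2 (2190 bp). The acetyltransferase gene Ep300 had 2296 bp. Those of Nsd1, Kdm2a and Smarca2 lay beside the end or inside the gene and did not cover an end or a listed start. Dnmt3a, a DNA methyltransferase gene, and Hdac7, a deacetylase gene, had no interval at an annotated end. Both had very wide intervals over listed starts inside the gene, of 2879 bp in Dnmt3a and 2363 bp in Hdac7, and Dnmt3a held another of 2142 bp. Counting these, 14 of the 34 genes had one. Promoters of the list held a median of 33 CG. The splicing factor genes, with a median of 31, had 8 of 30 (26.7%, 14.2 to 44.4%), among them U2af2 (2622 bp), Hnrnpa2b1 (2399 bp) and Hnrnpl (2148 bp) besides Ptbp1. A high CG count did not always stand beside a high share. The cAMP pathway genes, with a median of 31 CG, had 1 of 20 at an end, namely Sik1, and 0 of the 11 with at least 20 CG. Over listed starts inside the gene, Pde4a, a phosphodiesterase gene, had 2137 bp and Gnas, the gene of the stimulatory G protein subunit, 2007 bp, which made 3 of 20 (15.0%).

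The genes that define fibroblasts and their matrix had 8 of 30 (26.7%, 14.2 to 44.4%). Transcription factors of mesenchyme stood beside matrix genes in this group. Lox, which crosslinks collagen, had 3111 bp, Twist2 2965 bp, Twist1 2522 bp, Prrx1 2235 bp, and Col1a1, the main fibrillar collagen chain, 2311 bp. Fbn1, which encodes fibrillin, had 2280 bp, Col6a1 2172 bp (beside the end, not over it) and Col5a1 2052 bp. The Twist1 member covered most of the gene, and a further member of 2279 bp began 7362 bp beyond it. The median of the widest end interval was 1348.5 bp in this list. Its listed promoters, known for 18 of the 30 genes, held a median of 13.5 CG, below that of all genes. Of the 6 genes with 20 or more CG, 3 had a very wide interval. Collagen genes as a family had 8 of 42, including Col11a1 (2601 bp), Col14a1 (2519 bp) and the pair Col4a1 and Col4a2, which share an interval of 2547 bp.

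Genes of the actin cytoskeleton and adhesion had 8 of 26 (30.8%, 16.5 to 50.0%), with a median of 1692.5 bp and 21 CG. The tropomyosin genes Tpm2 (2707 bp) and Tpm4 (2305 bp), profilin (Pfn1, 2461 bp), alpha-actinin (Actn1, 2452 bp) and the light chain gene Myl6 (2311 bp) were among them. The 3009 bp counted for zyxin (Zyx) lay 766 bp beyond its 3′ end. Actg1 had no interval at an end. Cell cycle genes had 7 of 25 (28%, 14.3 to 47.6%) and a median of 26 CG, with Cdk6 in front, followed by E2f1 (2509 bp), Rb1 (2422 bp), Ccne2 (2141 bp) and Plk1 (2085 bp). E2f1 activates genes of DNA synthesis, and Rb1 encodes the protein that restrains it.

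**Figure D5:**
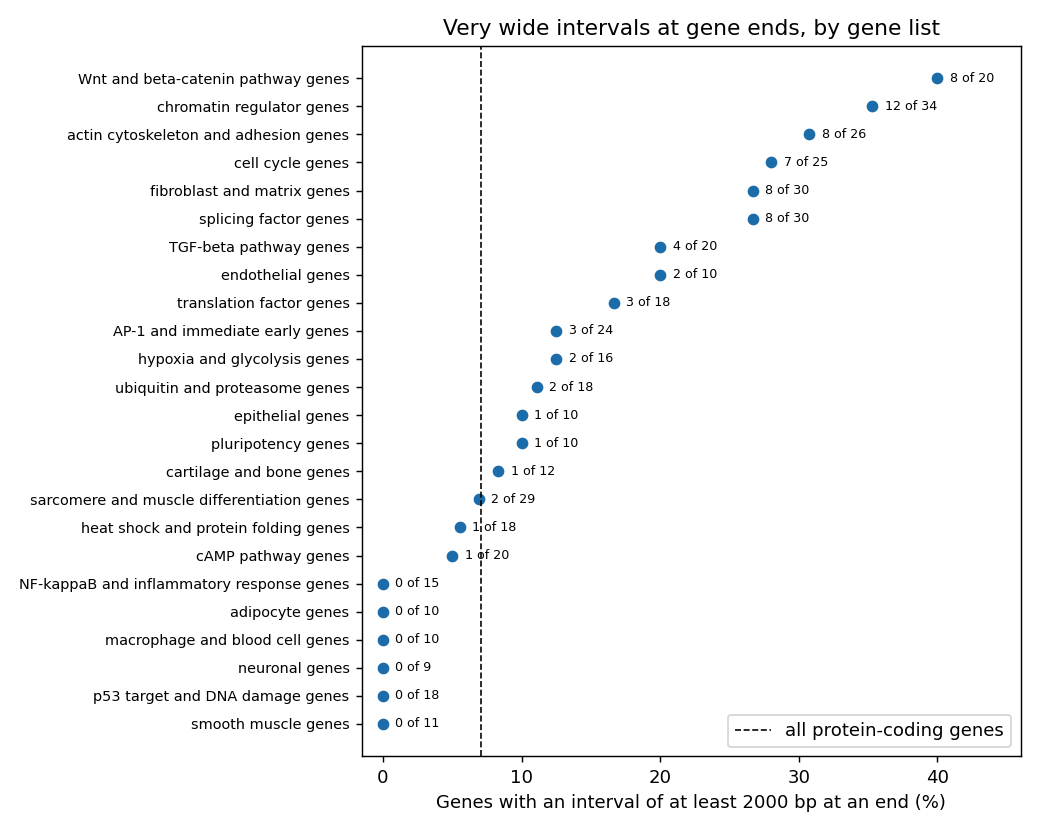
Share in % of the genes in each of 24 lists with an interval of at least 2000 bp within 1 kb of an end (horizontal axis), with the count beside each point; the dashed line is the 7.08% of all protein-coding genes. The Wnt list is highest with 8 of 20, and 6 lists have none.

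The TGF-beta pathway, which RepSox blocks at its receptor, had 4 of 20 (20.0%). These were Skil (2938 bp), a corepressor of Smad proteins, the receptor gene Tgfbr1 (2608 bp), which encodes the target of RepSox, Smad3 (2182 bp), a transducer, and Id3 (2008 bp). The ligand gene Tgfb1 (1946 bp) and Tgfbr2 (1866 bp) were below the limit, and Tgfb2 had no interval at an end. AP-1 and immediate early genes had 3 of 24 (12.5%), against 7.08% of all genes. These were Jun with 2289 bp over its start, Egr1 with 2090 bp and Fosb with 2033 bp. Of the 15 genes of this list with 20 or more CG, 1 had a very wide interval (6.67%), against 12.1% of all such genes. The Fosb interval lay 95 bp beyond the 3′ end of the gene and did not reach its start.

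Genes of the muscle program were described next. No very wide interval lay within 100 kb of Myf6, Myf5, Myod1, Myog or Pax7, where the widest intervals measured 1032, 1032, 1044, 1751 and 1271 bp. Within 100 kb of Pax3 there was a single member, the 3044 bp over Gm2102, which lay 18611 bp beyond the upper end of Pax3. Of 29 sarcomere and differentiation genes, 2 had a very wide interval at an end (6.90%), a share near the 7.08% of all genes. That of Tnnt3, a fast troponin T gene, measured 2297 bp and covered the gene end, while the 2530 bp counted for Tnnc1, the slow troponin C gene, covered the start of its neighbour Nisch. Myh2, Myh4, Myh8 and Myl1 had no interval at an end. Promoters of the sarcomere list held a median of 6 CG.

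Markers of fibroblasts and of other cell types were checked in the same way. Over all protein-coding genes, 15795 of 20661 had an interval at an end and 7.08% a very wide one. At these shares, sets of 5 to 12 markers would mostly have end intervals and few or no very wide ones. All 16 fibroblast markers had an interval at an end and 6 had a very wide one. Of 12 skeletal muscle markers 11 had an end interval and none a very wide one. Of the 6 macrophage and blood markers 3 had an end interval, and Ptprc, Adgre1 and Tyrobp had none. Of the 6 endothelial markers 3 had an end interval, while Pecam1, Vwf and Emcn had none. The endothelial factor gene Erg had 2235 bp over its start, the only very wide interval among these markers. In the longer endothelial list 2 of 10 genes had one (20.0%), Erg and Tie1, the latter at its 3′ end only. Of the 6 pluripotency markers 3 had an end interval. Among them Sox2 had 2076 bp over its start, whereas the ends of Pou5f1, Nanog and Zfp42 were without any interval. Of the 6 epithelial markers 5 had an end interval, as had all 5 neuronal markers, and none of either had a very wide one. In the longer epithelial list 1 of 10 genes had a very wide interval at an end (10.0%). Which group or which cells these intervals stem from was not tested.

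Gene families were counted by symbol. The Sox genes had 6 of 18 (33.3%, 16.3 to 56.3%), with a median of 22 CG, namely Sox11 (2661 bp), Sox5, Sox12, Sox21, Sox2 and Sox10, most of them regulators of cell fate. The forkhead genes had 10 of 41 (24.4%, 13.8 to 39.3%), with a median of 25.5 CG, among them Foxl2 (2813 bp), Foxk1 (2437 bp), Foxq1 (2380 bp) and Foxf2 (2153 bp) besides Foxo1. In all 16 of these genes the interval covered an end of the gene or a listed start. The Id, Hes and Hey genes, many but not all of them repressors of differentiation factors, had 4 of 13 (30.8%, 12.7 to 57.6%), with a median of 21 CG. These were Id4 (2435 bp), Hes6 (2381 bp), Hes5 (2127 bp) and Id3, and the intervals of Hes5 and Id3 lay beside the end. The Hox genes had 4 of 39 (10.3%), against 7.08% of all genes. These were Hoxb2 (2306 bp), Hoxb4 (2303 bp), Hoxc5 (2171 bp) and Hoxb9 (2137 bp). Some large families were near or below the background. Cytoplasmic ribosomal protein genes had 6 of 81 (7.41%), the respiratory chain and ATP synthase 4 of 93 (4.30%) and histones 4 of 67 (5.97%). This did not hold for all genes of basic cell functions. Translation factor genes had 3 of 18 (16.7%), ubiquitin and proteasome genes 2 of 18 (11.1%) and the splicing factor genes above 8 of 30 (26.7%). None of the 1104 olfactory receptor, 354 vomeronasal receptor, 57 clustered protocadherin or 53 keratin genes had a very wide interval at an end, and 74 of the olfactory receptor genes had any interval there. The p53 target, NF-kappaB, smooth muscle, adipocyte, macrophage and neuronal lists also had none at an end. An interval of 2220 bp did cover listed starts inside Nfkb2. Heat shock genes had 1 of 18 (5.56%), Hsp90ab1 (2423 bp).

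Very wide intervals centred over a gene body, more than 1 kb from an end, lay more often in its first than its last 25%. Of 468 such members 376 lay over a gene of listed strand, and 184 of these (48.9%) had their midpoint in the first 25% of the gene, while the last 25% held 52 (13.8%). These counts include members that cover a gene end. No comparison with narrower intervals is drawn here, since an interval under 2000 bp centred over 1 kb from an end cannot cover it. A listed start was covered by 215 of the 376, and 160 had their midpoint within 5 kb of the gene's start. The widest with no listed protein-coding start and no covered end lay in Spns2, in Rgma (3251 bp), a repulsive guidance gene, and in Jade2 (3229 bp), the latter 2 each touching a lncRNA gene. For genes of unlisted strand, internal starts are unknown.

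The 120 members far from protein-coding genes lay at a median of 40.6 kb and at most 589.7 kb from the nearest gene. Only 29 of them touched an end of a noncoding gene. The widest 10 measured 2709 to 3628 bp. After the one near Tex44 came those 64410 bp from Ppara (3228 bp), 20322 bp from 1700029H14Rik (3103 bp), 10151 bp from Itgb1 (3084 bp), the integrin beta-1 gene, 16281 bp from Tha1 (2990 bp), 20777 bp from Dab2 (2882 bp), 18356 bp from Olfr1373 (2874 bp) and 12668 bp from B4galnt4 (2771 bp). The remaining 2, of 2734 bp near Zfp608 and 2709 bp near Lrig3, lay 555648 and 179886 bp away. Zfp608, a zinc finger gene of chromosome 18, was the nearest gene to 3 far members, more than any other gene. Counting genes of every kind, 353 of the 1686 members touched neither an annotated gene end nor a listed start, 201 of them over a protein-coding gene and 152 outside.

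Few very wide intervals lay next to each other, but whether their spacing departs from random was not tested. The median gap between neighbours among them was 586.4 kb, and 16 pairs lay within 10 kb of each other, the nearest being at Arhgef25 and Dtx3 with a gap of 4047 bp, followed by a pair at Foxf2 with 5146 bp. They had as many other intervals around them as any interval did, with a median of 4 within 10 kb in both cases. The nearest other interval was somewhat further off, at a median of 1977 bp against 1494 bp for intervals of 1000 to 1999 bp and 1236 bp over all. Their share of a chromosome's intervals ran from 0.374% on chromosome 14 to 0.727% on chromosome 11, and their number per 100 protein-coding genes from 5.52 on chromosome 7 to 12.0 on chromosome 18.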

How the data were processed

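ATAC-seq libraries of 3 groups with 2 libraries each were made by the authors with an Omni-ATAC protocol, per the labels' protocols. The submitters' processing notes name the aligner BWA, the peak caller MACS2, DESeq2 and the build GRCm38.p6. Per the file headers, annotatePeaks.pl was run by the authors on consensus peaks. Settings of peak calling, joining and filters are not given in the sources used here. Positions of 323483 intervals make up the deposited table. Its peak score is 0 throughout and no column names a library, so no test between groups was possible, and precision is limited to counting error.

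Widths, midpoint classes, covered ends and shares were computed in Python 3.11.15 (pandas 2.3.3, numpy 2.4.6), Wilson intervals with scipy 1.17.1, and figures with matplotlib 3.10.9. Genes, starts and promoters came from RefSeq tables of the same build, in which 459 of the 466 listed symbols matched on chromosomes 1 to 19. Exons are not in these tables. The placement code was checked on simulated intervals of known position, all of which it placed correctly. The members, gene lists and settings were chosen with earlier results of these data known. Named genes followed a rule: the 20 widest intervals, the 10 widest far from genes and over gene bodies, the 10 joining most ends, genes with 1 at each end, up to 4 per list with the widest and up to 4 without an end interval, the 5 on each side of 2000 bp, and those near muscle regulators. Further list members and the family examples were named after their values were seen. Some genes that the rule names are not reported here. Alternatives were other widths, end distances and gene sets.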

Additional observations from a re-analysis of the deposited data

Results flagged for a closer look

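Rows outside chromosomes 1 to 19 also held very wide intervals, and these entered no comparison above. Chromosome X had 42 among 8455 intervals (0.497%, 95% Wilson interval 0.368 to 0.671%), with the widest at 2985 bp, close to the 0.535% of chromosomes 1 to 19. A single unplaced sequence had 3 among 55 intervals (5.45%, 1.87 to 14.9%), with the widest at 3299 bp. They were picked out because they lie in rows that the comparisons did not use. The cause was not tested.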

How the results depend on the processing

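No paired analysis was possible because the deposited table has no value per library, and leaving out libraries was not possible for the same reason. Of 18 other settings, 16 moved a share beyond its counting interval. With a minimum width of 1500 bp, the share of intervals at a gene end was 53.1%, over a listed start 50.0%, over ends of several genes 8.17%, far from genes 12.3%, and 24.4% of genes had such an interval at an end. With 3000 bp (52 intervals) the values were 46.2% at a gene end, 15.4% over several genes' ends and 0.257% of genes, while those over a start (59.6%) and far from genes (7.69%) stayed within the interval. With an end distance of 500 bp, 35.9% of intervals and 6.69% of genes were counted, and with 5000 bp 77.9% and 8.42%. With RefSeq genes of all kinds, 66.7% lay at a gene end, 22.3% covered several genes' ends and 3.02% were far from genes. With all listed starts, 63.7% covered a start. Counting genes with an interval at an end or over a listed start, added after the data were seen, gave 7.57% of genes. Other widths for the 9 lists and families above 20% with at least 10 genes were added after the data were seen. Of 18 such values, 17 lay above the share of all genes at that width (24.4% at 1500 bp, 1.44% at 2500 bp), the exception being the Id and Hes genes with 0 of 13 at 2500 bp. The lists were chosen by their share at 2000 bp, and every gene counted at 2000 bp also counts at 1500 bp. These values are therefore a description and no independent check of the lists. At 2500 bp each of the 9 had at most 4 genes. Depth is unknown.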

Other observations

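Very wide intervals also overlapped genes of small RNAs. Of 391 tRNA genes on chromosomes 1 to 19, 19 lay under one (4.86%), in 14 intervals, and 65.2% lay under an interval of any width. Of the protein-coding genes 7.98% were overlapped by a very wide interval, and of the lncRNA genes 2.84%. Among snoRNA genes it was 0.233% and among snRNA genes 0.215%. The tRNA members included an interval of 2487 bp with 2 tRNA genes 35838 bp from the nearest protein-coding end, that of Vmn1r223, and one of 2264 bp with 2 tRNA genes near Dhx37. Of 1136 microRNA genes 22 lay under a very wide interval (1.94%), and 21.5% lay under an interval of any width. In a separate list of microRNA hairpins, 16 lay under very wide intervals, among them those at Chd4 (2728 bp, Mir7045) and Kmt2b (2132 bp, Mir3569). Reads in these intervals cannot be assigned to the small RNA gene or to the larger gene beside it.

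By symbol stem, among stems with at least 10 protein-coding genes, Fzd and Gng had the highest share, each with 5 of 10 genes with a very wide interval at an end, followed by Rassf with 4 of 10. Fzd genes encode Wnt receptors and Gng genes encode gamma subunits of G proteins. The choice of these stems followed from their values, and no test was made.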
